A study of Homo sapiens with 12 samples.

Results

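HN6 is an established human cell line of oral squamous cell carcinoma (OSCC). FAT1 is a very large atypical cadherin, a transmembrane protein that links cell contacts to the actin cytoskeleton and to growth signalling. The 6 HN6 libraries of the series, of 12 in all, were described here. They comprised 2 libraries of cells given a scrambled siRNA (NC), 2 of cells given siFAT1-1 and 2 of cells given siFAT1-2, the titles naming the siRNAs as sh1 and sh2. All HN6 cells were transfected with Lipofectamine RNAiMAX, carried no other named agent or allele, and were harvested after 24 h. The 2 libraries of a condition were made at separate times (repeat 1 and repeat 2), and the other 6 libraries repeat the design in the cell line HN30. The 4 libraries of both FAT1 siRNAs together are called KD. A single scrambled siRNA served as control, so an effect of that siRNA and an effect of FAT1 knockdown cannot be told apart wherever both FAT1 siRNAs moved a gene alike. All cells were of 1 line, and in bulk RNA fewer cells of a state and less RNA per cell cannot be told apart.

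The genes described are those whose 4 KD libraries all lay on one side of both NC libraries in CPM (the count of a gene relative to the library's effective size, scaled to a common total). Of the 13626 genes with enough counts in HN6, 1009 had all 4 KD libraries above both NC libraries (7.4% of genes tested) and 1195 had all 4 below (8.77%). These genes are called separated, higher or lower. Separation is a statement on order only and carries no test. A test came from edgeR's quasi-likelihood fit of the 4 KD against the 2 NC libraries across all genes, and a differentially expressed gene (DEG) was called where the unadjusted P was under 0.05 and the log2 fold change exceeded 1 in either direction, the thresholds of the study. By these thresholds 299 genes rose (2.19% of genes tested) and 121 fell (0.888%), and 275 of the former and 98 of the latter were also separated. After Benjamini-Hochberg adjustment 0 genes had a p under 0.05 with edgeR, the lowest adjusted p being 0.814, against 779 genes at an unadjusted P under 0.05. The adjusted count was 0 with limma-voom and 68 with DESeq2. The verbs rose and fell and the words past the test refer to these thresholds in edgeR's fit unless another tool is named, fold changes are on the log2 scale with their standard error (SE), and every DEG named for KD against NC had an adjusted p = 0.814. The study's methods call the 2 repeats biological, but nothing in the labels says that they were more than separate times of the same culture. The p-values therefore measure the spread between these libraries.

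Total counts of the HN6 libraries ran from 31493389 to 47639010. For genes with many counts the spread between libraries, not counting error, set the precision. For genes with few counts, counting error matters as well. The repeats of NC had the lowest correlation of log2 CPM (0.933, against 0.986 for siFAT1-1 and 0.952 for siFAT1-2), and their counts differed beyond counting error, as did those of the other pairs. On the first principal component (50.2% of the variance) NC repeat 2 stood at 80.9 and siFAT1-2 repeat 1 at -72.5, with the other libraries between -34.9 and 23.0. Without NC repeat 1 the DEGs numbered 1599, of which 1521 rose, and without NC repeat 2 they numbered 513, of which 283 rose and 230 fell. Of 70 DEGs named by rule and refitted with each library left out, 20 lost their unadjusted P under 0.05 without NC repeat 1, 15 without NC repeat 2 and 3 to 7 without a KD library, and these are given with each group below. With 1 NC library left, that library is assumed to vary like the others, and the count of separated genes becomes 7646 or 5205, fewer libraries having to be passed. Scaled by library size alone, in place of TMM factors, the median of all genes moved by 0.11 on the log2 scale, and the calls became 399 higher and 83 lower (82.8% higher, against 71.2%).

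FAT1 itself lies on chromosome 4 (minus strand, GRCh38). It had 54.8 and 63.6 CPM in the NC libraries, 7.30 and 13.1 CPM with siFAT1-1, and 12.9 and 21.4 CPM with siFAT1-2. Both siRNAs thus left all their libraries below both NC libraries, with no overlap, and the gap to the nearest NC library was 1.35 on the log2 CPM scale. The fitted log2 fold change was -2.11 (SE 0.40, 4 against 2 libraries). Against NC it was -2.54 with siFAT1-1 and -1.79 with siFAT1-2, in a fit that shared the NC libraries, and the difference between the siRNAs of 0.75 did not pass the test.

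**Figure D1:**
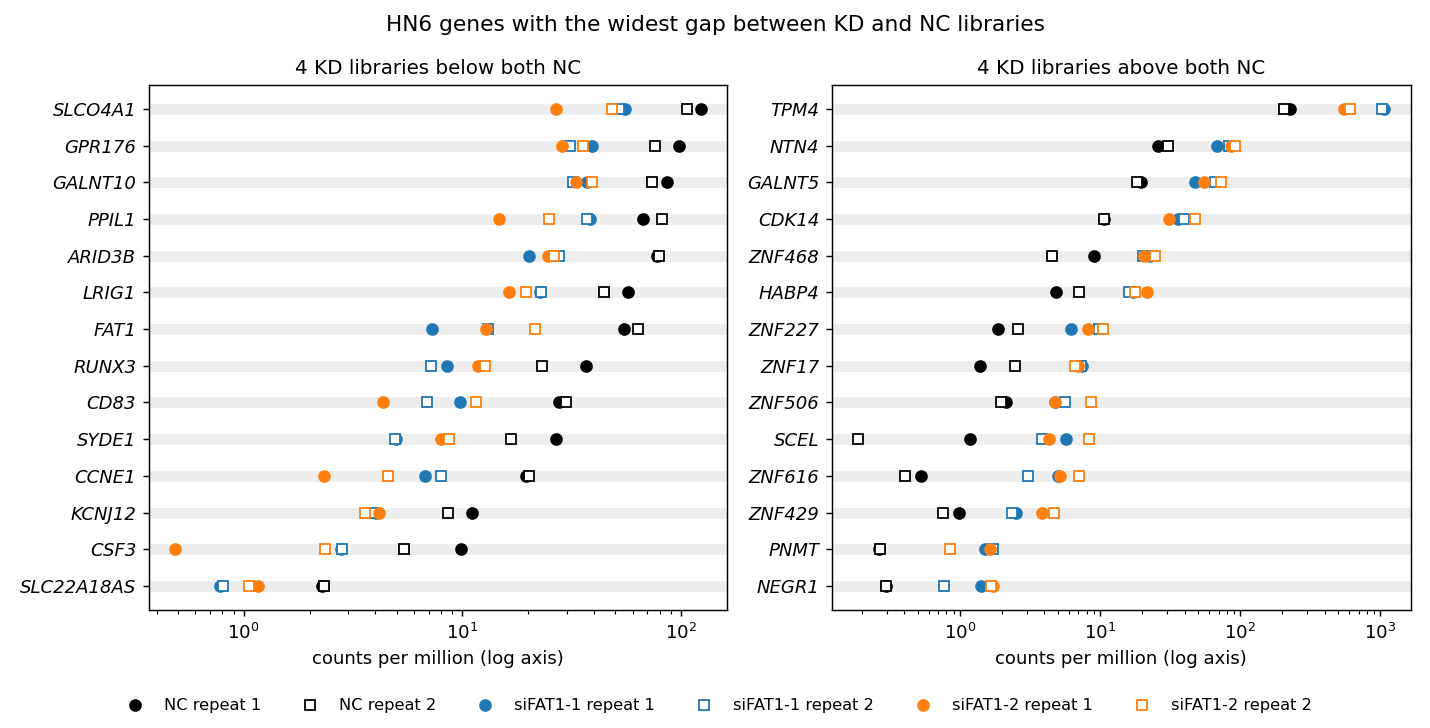
CPM (log axis) of the 14 lower and 14 higher genes with the widest gap between KD and NC libraries in HN6, 1 symbol per library, black for NC, blue for siFAT1-1, orange for siFAT1-2, filled circles for repeat 1 and open squares for repeat 2. Every coloured symbol lies to one side of both black symbols by construction, and FAT1 drops from 54.8 and 63.6 to between 7.30 and 21.4.

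The genes with the widest gaps on the lower side were led by ARID3B rather than by FAT1. ARID3B encodes a DNA-binding protein of the ARID family. It had 77.5 and 79.6 CPM in NC and 20.2, 27.6, 24.5 and 26.2 CPM in the KD libraries, a fall of 1.67 (SE 0.24) on the log2 scale. The KD libraries lay close together here, although they came from different siRNAs. CCNE1, which encodes cyclin E1, the partner of CDK2 at entry into S phase, had 19.5 and 20.2 CPM in NC, 6.71 and 8.0 CPM with siFAT1-1 and 2.32 and 4.55 CPM with siFAT1-2. It fell by 1.88 (SE 0.46), and every siFAT1-2 library lay below every siFAT1-1 library.

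Among the other widest gaps on the lower side were several membrane proteins and regulators. LRIG1, a negative regulator of the EGF receptor family, went from 57.4 and 44.4 CPM in NC to between 16.3 and 23.0 CPM (log2 fold change -1.32, SE 0.27). GPR176, an orphan G protein-coupled receptor, went from 97.4 and 75.8 CPM to between 28.6 and 39.0 CPM (-1.37, SE 0.25). Neither gene overlapped between the groups. RUNX3, a transcription factor of the RUNT family, had 36.7 and 23.2 CPM in NC and 8.49, 7.20, 11.8 and 12.7 CPM in KD (-1.58, SE 0.35). SYDE1, a GTPase-activating protein, had 26.8 and 16.7 CPM in NC and 4.95, 4.94, 7.96 and 8.70 CPM in KD (-1.71, SE 0.37). For both, the siFAT1-1 libraries were the lowest. GALNT10, an enzyme that starts mucin-type O-glycosylation, the potassium channel gene KCNJ12, the organic anion transporter SLCO4A1, the splicing-associated isomerase PPIL1 and the antisense transcript SLC22A18AS fell by 1.18, 1.32, 1.33, 1.38 and 1.28 on the log2 scale. SLC22A18AS overlaps its sense partner, and since the use of strand in counting is not given in the sources used here, reads of the pair cannot be told apart. Its P was not under 0.05 without NC repeat 2, at -1.26.

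On the higher side the widest gap belonged to ZNF616, a KRAB-type zinc finger gene of chromosome 19. It had 0.526 and 0.403 CPM in NC and 5.0, 3.06, 5.13 and 7.08 CPM in KD, a rise of 3.44 (SE 0.52) from a low level. SCEL, which encodes sciellin, a protein of the cornified envelope of squamous cells, had 1.18 and 0.188 CPM in NC and between 3.86 and 8.31 CPM in KD (3.03, SE 0.77). Its NC libraries lay far apart from each other, but all KD libraries lay above the higher one, and without NC repeat 1 the fold change was 4.85. CDK14, a cyclin-dependent kinase that acts with cyclin Y in Wnt signalling, had 10.7 and 10.6 CPM in NC and 35.9, 39.7, 30.7 and 47.7 CPM in KD (1.86, SE 0.31).

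TPM4, a tropomyosin that binds along actin filaments, was the most abundant gene among the widest gaps. It stood at 228 and 205 CPM in NC, at 1063 and 1026 CPM with siFAT1-1 and at 547 and 611 CPM with siFAT1-2. It rose by 1.91 (SE 0.36), and the siFAT1-2 effect was smaller by 0.85 (unadjusted P under 0.05, adjusted p = 0.389). NTN4, the secreted laminin-related protein netrin 4, went from 25.8 and 30.5 CPM to between 68.5 and 91.5 CPM (1.54, SE 0.26). GALNT5, an O-glycosylation enzyme like GALNT10 but moving the other way, went from 19.4 and 18.4 CPM to between 47.5 and 72.8 CPM (1.67, SE 0.29). HABP4, NEGR1 and PNMT rose by 1.60, 2.22 and 2.41, and the NC libraries of NEGR1 and PNMT had between 0.263 and 0.296 CPM. In counts these were 9 and 11 for NEGR1 and 8 and 10 for PNMT. Both genes passed the count filter through their KD libraries, so their values are a description. After the correction for GC content described below, GALNT5 and NEGR1 had 1.04 and 1.43. The other 5 of the 14 were the zinc finger genes ZNF17, ZNF227, ZNF429, ZNF468 and ZNF506, taken up with their family below.

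At the edge of the rule the values are close to a tie. The gene just inside on the higher side was IP6K3, with an NC library at 0.994 CPM and a siFAT1-2 library also at 0.994 CPM after rounding, and the gene just outside was LYRM2, where an NC and a KD library both read 34.1 CPM. On the lower side WDR62 was just inside, with 67.9 CPM in an NC and in a KD library after rounding, and HNRNPD just outside, with 372 CPM in both. Of the DEGs, 24 that rose and 23 that fell had overlapping libraries. MMP9, a secreted gelatinase, was one of these. It had 522 and 56.4 CPM in NC and 56.7, 48.5, 15.4 and 25.8 CPM in KD, and fell by 2.98 (SE 0.77). NC repeat 1 alone stood high, and NC repeat 2 lay among the KD libraries.

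**Figure D2:**
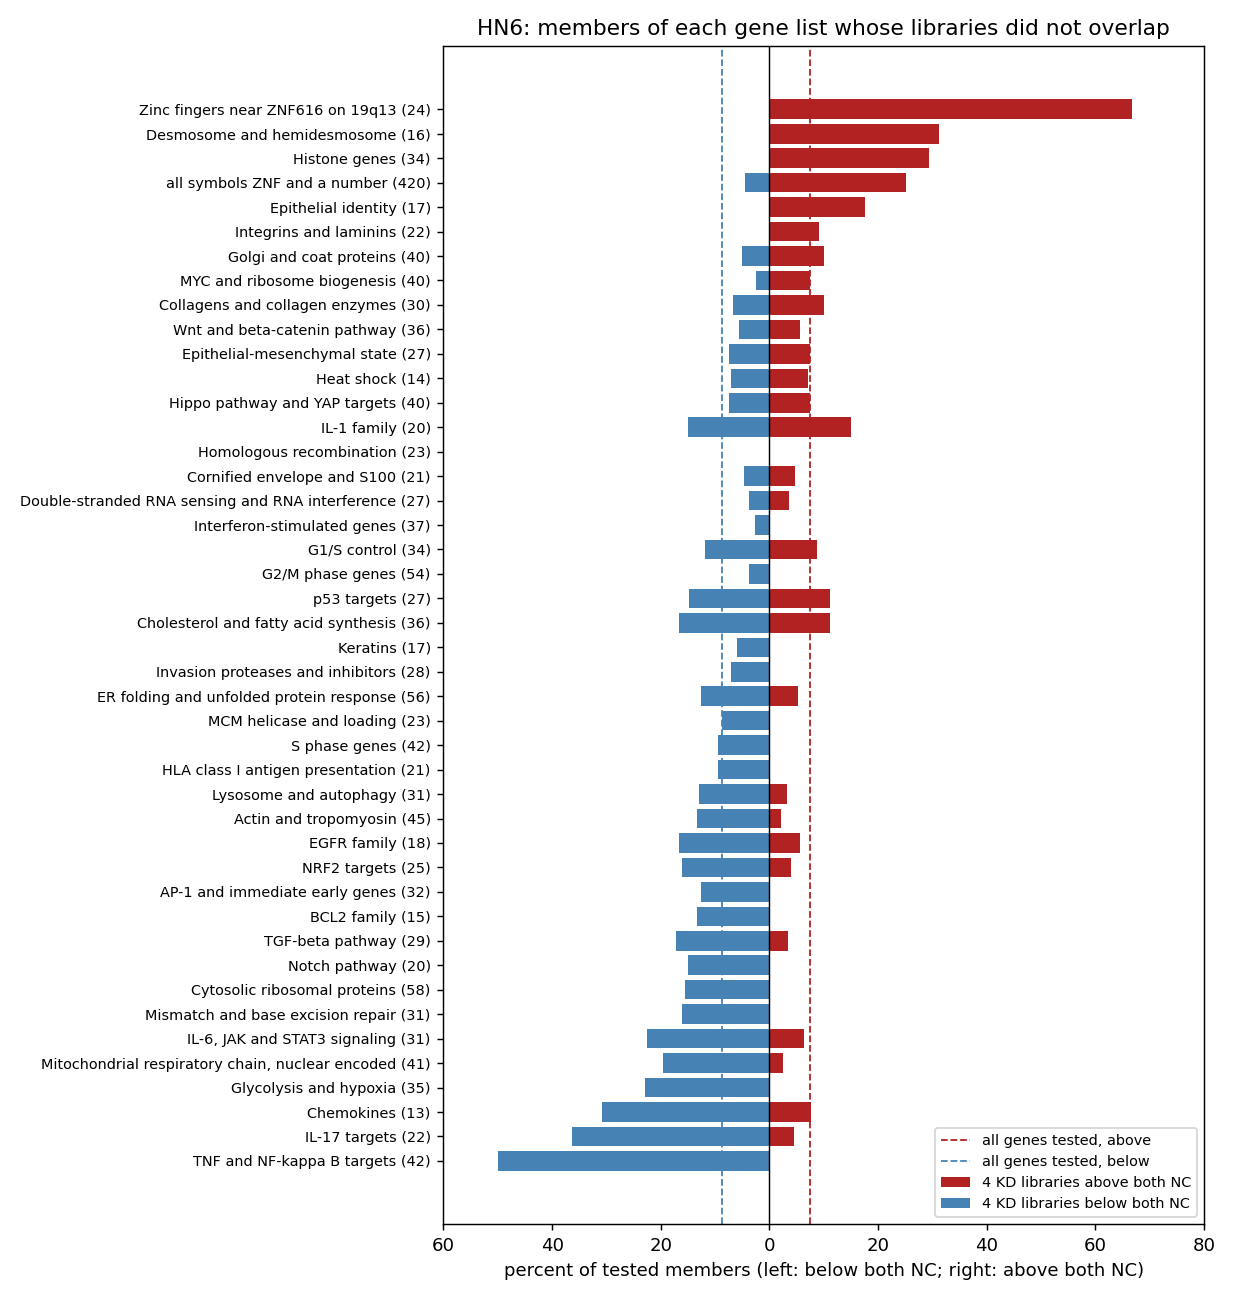
Share of the tested members of each gene list (number tested in parentheses) whose 4 KD libraries lay above both NC libraries (red, to the right) or below both (blue, to the left) in HN6, for lists with at least 13 tested members. Dashed lines mark the same shares over all genes tested, 7.4% and 8.77%. The longest bars are those of the zinc fingers near ZNF616 on the right (66.7%) and of the NF-kappa B target list on the left (50%).

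NF-kappa B is a family of dimeric transcription factors held in the cytoplasm by inhibitors of the I-kappa B type. TNF or IL-1 receptors release it through TRAF adaptors, and it then drives genes for cytokines, chemokines, adhesion molecules and its own inhibitors and subunits. In squamous carcinoma cells this output is often high without added cytokine. A list of target genes of TNF and NF-kappa B was written with earlier results of these data known. From these libraries and those of HN30 the study had reported both pathways as suppressed by FAT1 knockdown. The shares of the list therefore describe these libraries and are not independent evidence. Of its 42 tested genes, 12 fell and 0 rose, 21 were separated lower (50%, against 8.77% of all genes) and 0 were separated higher. The median log2 fold change was -0.84, against 0.03 over all genes tested, and 37 of the 42 fold changes were below 0. With limma-voom 11 members fell and with DESeq2 12, and 0 rose with either.

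The mean level of the list, as log2 CPM relative to the mean of the NC libraries, was 0.39 and -0.39 in the NC libraries, -0.64 and -0.73 with siFAT1-1, and -1.06 and -0.69 with siFAT1-2. NC repeat 2 was thus the nearest to the KD libraries, and the NC libraries stood further apart than the KD libraries. Without NC repeat 1, 5 members fell and 2 rose (median -0.54), and without NC repeat 2, 17 fell and 0 rose (median -1.02).

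Among the subunits, NFKB2, which gives p52, had 267 and 239 CPM in NC, 149 and 125 CPM with siFAT1-1 and 75.8 and 97.2 CPM with siFAT1-2. It fell by 1.18 (SE 0.29). RELB, the usual partner of p52, had 72.8 and 47.3 CPM in NC and 42.7, 22.3, 20.7 and 17.8 CPM in KD (-1.21, SE 0.40). NFKB1, which gives p50, had 69.8 and 63.8 CPM in NC and 43.3, 41.3, 16.5 and 31.0 CPM in KD (-1.02, SE 0.38). All of them were lower with siFAT1-2 than with siFAT1-1 on average, and none overlapped with NC. RELA had a log2 fold change of -0.86 and overlapping libraries and REL one of 0.60, neither past the test. With NC repeat 1 left out, RELB (-0.87) and NFKB1 (-0.95) lost their P under 0.05, and NFKB1 lost it also without NC repeat 2 (-1.08) and without siFAT1-2 repeat 2 (-0.99).

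Of the inhibitors and adaptors, TRAF1, an adaptor of TNF receptors whose gene is itself a target, had 119 and 37.7 CPM in NC and 23.3, 16.4, 11.9 and 14.1 CPM in KD. Its fold change was the greatest in the list, at -2.26 (SE 0.46), and its NC libraries stood further apart than its KD libraries. NFKBIE, which encodes I-kappa B epsilon, went from 79.4 and 61.2 CPM to between 24.5 and 36.3 CPM (-1.25, SE 0.27). TNFAIP3, which encodes the ubiquitin-editing inhibitor A20, went from 367 and 204 CPM to 145, 155, 94.2 and 167 CPM (-1.02, SE 0.32). NFKBIA, the best known inhibitor gene, was separated lower at 227 and 197 CPM against 97.8 to 154 CPM, but its log2 fold change of -0.85, at an unadjusted P under 0.05, was short of the size threshold. Leaving out NC repeat 1 gave -1.20 for TRAF1 and -0.54 for TNFAIP3, the latter no longer at a P under 0.05.

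Several genes for secreted and surface products fell as well. CD83, a surface protein of the immunoglobulin family that activated immune cells display, had 27.7 and 29.6 CPM in NC, 9.71 and 6.89 CPM with siFAT1-1 and 4.35 and 11.6 CPM with siFAT1-2. It fell by 1.82 (SE 0.40), with no overlap and NC libraries close to each other. IL1B, which encodes the cytokine interleukin 1 beta, had 80.9 and 39.3 CPM in NC, 11.9 and 12.4 CPM with siFAT1-1 and 18.3 and 36.4 CPM with siFAT1-2 (-1.61, SE 0.51). Here the siFAT1-2 repeat 2 library came within 0.11 (log2 CPM) of an NC library. CXCL1, which encodes a neutrophil-attracting chemokine, had 184 and 123 CPM in NC and 56.0, 59.5, 39.6 and 87.8 CPM in KD (-1.34, SE 0.33). ICAM1, an adhesion receptor for leukocytes, CXCL2, a chemokine like CXCL1, and TNFRSF9, the co-stimulatory receptor 4-1BB, fell by 1.25, 1.07 and 1.18, with gaps of 0.03, 0.02 and 0.10 (log2 CPM) between the nearest KD and NC libraries. With the repeat as a block CXCL2 and TNFRSF9 no longer passed, their unadjusted P rising to 0.0523 and 0.0626. TNF itself was separated lower, at 19.5 and 16.5 CPM against 5.36 to 15.1 CPM, and did not pass the test (-0.89), nor did CXCL8 (-0.83) and IL6 (-0.76), whose libraries overlapped. If NC repeat 1 was left out, IL1B (-1.0), ICAM1 (-0.61), CXCL2 (-0.54) and TNFRSF9 (-0.67) lost their P under 0.05, as did CXCL2 without either siFAT1-1 library (-0.89 and -1.03) and TNFRSF9 without either siFAT1-2 library (-0.93 and -1.07).

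**Figure D3:**
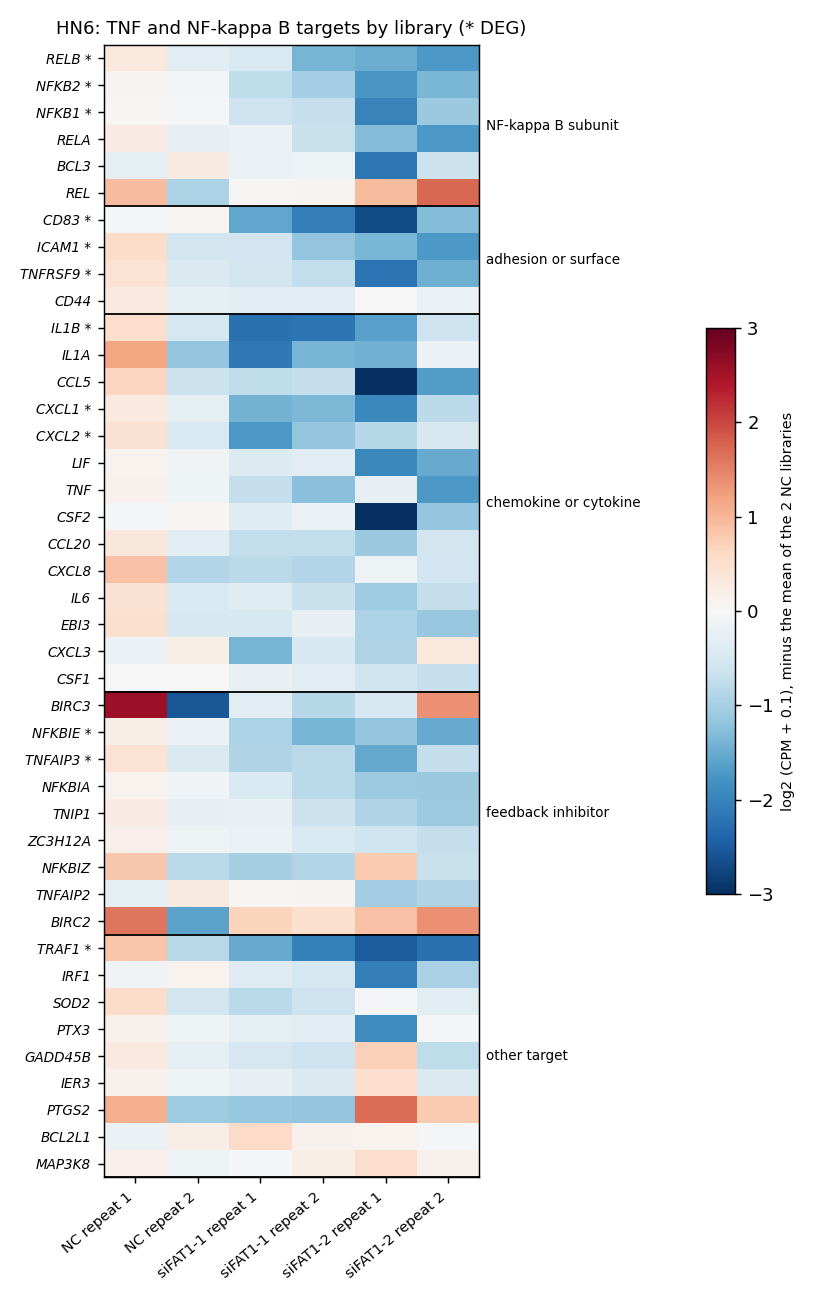
Heat map of the 42 tested NF-kappa B target genes in the 6 HN6 libraries, grouped by role. Colour gives log2 (CPM + 0.1) minus the mean of the NC libraries, blue for lower and red for higher, cut at 3 in either direction, and asterisks mark DEGs. Blue fills most of the 4 KD columns for the 12 DEGs, while BIRC3, at 128 and 3.55 CPM, and BIRC2, at 69.5 and 7.31 CPM, differ widely between the NC libraries.

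Promoters of these genes were looked at because the members fell together and because sites for NF-kappa B in them are well known. Of the 12 members that fell with separated libraries, 10 had promoter windows of 300 bases in RefSeq on GRCh38.p14, from 250 bases before to 50 bases after a transcription start, and 7 of the 10 held the letters GGGNNNTTCC or, on the other strand, GGAANNNCCC, in at least 1 window. They were CD83, CXCL1, CXCL2, NFKB1, NFKB2, TNFAIP3 and TNFRSF9. Of all tested genes with such a window 10.1% held the motif, and of all 35116 windows 6.52%. Among all separated DEGs that fell, these members included, 70 had a window and 11 of them held the motif. The members were listed as known targets, so a high share was to be found whether or not they fell. Whether the motif bears on their fall was not tested. Matches can overlap, genes with several windows have more chances to hold one, and a match is a description of letters, not a shown binding site. The windows of ICAM1, IL1B and TRAF1 did not hold these letters. The 4 windows below are shown because they belong to members whose fall is described above, and capitals mark the motif on either strand.
CD83, chr6:14117522-14117821: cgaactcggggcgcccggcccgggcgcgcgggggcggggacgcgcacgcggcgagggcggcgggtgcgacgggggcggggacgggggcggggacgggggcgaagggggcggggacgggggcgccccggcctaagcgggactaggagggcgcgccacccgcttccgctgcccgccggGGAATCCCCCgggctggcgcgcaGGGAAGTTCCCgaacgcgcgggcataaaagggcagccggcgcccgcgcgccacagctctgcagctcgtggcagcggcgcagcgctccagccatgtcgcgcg
NFKB2, chr10:102394328-102394627: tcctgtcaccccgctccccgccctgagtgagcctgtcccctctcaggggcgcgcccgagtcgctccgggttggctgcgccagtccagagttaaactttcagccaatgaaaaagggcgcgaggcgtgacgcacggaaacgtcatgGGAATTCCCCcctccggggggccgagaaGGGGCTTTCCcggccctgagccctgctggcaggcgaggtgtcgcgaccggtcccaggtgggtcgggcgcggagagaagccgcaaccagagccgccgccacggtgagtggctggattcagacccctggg
CXCL1, chr4:73869143-73869442: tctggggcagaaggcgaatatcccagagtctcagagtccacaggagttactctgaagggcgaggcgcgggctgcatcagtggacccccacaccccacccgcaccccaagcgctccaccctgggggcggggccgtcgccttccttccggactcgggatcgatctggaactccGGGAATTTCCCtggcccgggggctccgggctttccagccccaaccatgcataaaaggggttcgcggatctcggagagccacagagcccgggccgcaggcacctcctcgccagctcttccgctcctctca
TNFAIP3, chr6:137867009-137867308: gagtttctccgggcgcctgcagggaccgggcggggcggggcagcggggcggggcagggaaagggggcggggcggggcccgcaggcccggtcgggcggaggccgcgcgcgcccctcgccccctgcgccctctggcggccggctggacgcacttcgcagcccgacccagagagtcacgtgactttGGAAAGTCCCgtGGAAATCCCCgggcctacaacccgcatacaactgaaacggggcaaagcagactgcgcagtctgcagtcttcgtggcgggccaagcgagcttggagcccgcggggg
All 4 read 5′ to 3′ on the plus strand, and the CD83 window held 3 matches and each of the others 2.

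Lists that share members or signals with this one moved less. Over all genes tested 0.888% fell and 8.77% were separated lower. Of 22 tested IL-17 targets, 5 fell (CSF3, CXCL1, CXCL2, TNFAIP3 and MMP9), 0 rose and 8 were separated lower (36.4%). CSF3, which encodes the granulocyte growth factor G-CSF, was among the widest gaps at 9.87 and 5.40 CPM in NC and 2.78, 2.81, 0.486 and 2.35 CPM in KD (-1.86, SE 0.63). Of 32 AP-1 and immediate early genes, 3 fell and 0 rose, with a median of -0.34, and 4 were separated lower (12.5%). FOSL1, an AP-1 subunit prominent in squamous carcinoma, was one of them, at 711 and 515 CPM in NC and between 152 and 369 CPM in KD (-1.20, SE 0.34). SPRY4, an inhibitor of receptor tyrosine kinase signalling, fell by 1.13, and EGR2 fell by 1.87 with overlapping libraries. Of 20 genes of the IL-1 family, 3 fell (IL1B, IL37 and the receptor IL1RL1) and 0 rose, while 3 were separated lower and 3 higher (15% each). IL1RL1 did not pass with the repeat as a block (unadjusted P of 0.0550). In this group of lists CSF3 (-1.36), FOSL1 (-0.96), SPRY4 (-0.59) and IL1RL1 (-0.79) lost their P under 0.05 without NC repeat 1, IL1RL1 also without any 1 of the KD libraries (-1.05 to -1.46) and SPRY4 without siFAT1-2 repeat 2 (-1.09). In the list of 31 IL-6, JAK and STAT3 genes 7 were separated lower (22.6%) and 2 higher, with a median of -0.048, while 0 were DEGs with edgeR, 0 had an unadjusted P under 0.05, and 1 fell with limma-voom and with DESeq2.

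Zinc finger genes formed the largest group on the higher side. The KRAB zinc finger genes, which lie in clusters on chromosome 19 and mostly encode repressors of transposable elements, arose by duplication, and reads of near-identical members could be split between them in counting, so single members are uncertain. The list of zinc fingers near ZNF616 was drawn around the gene with the widest gap, with earlier results of these data known. In it 24 genes were tested, all on chromosome 19 between 51991332 and 53580269 (GRCh38). Of these, 10 rose, 0 fell, 16 were separated higher (66.7%, against 7.4% of all genes) and 0 lower. The median log2 fold change was 1.14, and 23 of 24 fold changes were above 0. With limma-voom 13 members rose and with DESeq2 11. Without NC repeat 1, 18 rose (median 2.09), and without NC repeat 2, 3 rose and 1 fell (median 0.80).

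ZNF468 had 9.08 and 4.51 CPM in NC and 22.9, 20.1, 20.7 and 24.6 CPM in KD (1.70, SE 0.38). ZNF766 had 4.28 and 5.26 CPM in NC and 10.8, 13.4, 14.9 and 15.6 CPM in KD (1.52, SE 0.34). Neither overlapped, and for both the KD libraries spread less than the gap to NC. ZNF765 had 2.34 and 0.618 CPM in NC and 6.25, 2.56, 9.88 and 10.03 CPM in KD (2.29, SE 0.76), with siFAT1-1 repeat 2 only just above NC repeat 1. ZNF525, ZNF611, ZNF761, ZNF808 and ZNF816 rose by 1.41, 1.01, 1.37, 1.44 and 1.61 with separated libraries, ZNF611 not with the repeat as a block (unadjusted P of 0.0573). ZNF845 rose by 2.56 with overlapping libraries, since siFAT1-1 repeat 2 had 2.16 CPM and NC repeat 1 had 2.34 CPM. Leaving out NC repeat 2 took 6 of these genes out of the P threshold, ZNF525 (1.04), ZNF611 (0.56), ZNF761 (0.87), ZNF765 (1.62), ZNF808 (0.97) and ZNF816 (1.09), while leaving out NC repeat 1 gave 1.65 for ZNF611, 2.12 for ZNF761 and 3.53 for ZNF765. ZNF611 lost it also without either siFAT1-1 library (1.03 and 0.99) and without siFAT1-2 repeat 2 (0.89), and so did ZNF525 without the last (1.04).

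The pattern was not limited to this stretch of chromosome 19. Among all 420 tested symbols made of ZNF and a number, a group chosen after its values were seen, 69 rose and 0 fell, 106 were separated higher (25.2%) and 19 lower (4.52%), and the median log2 fold change was 0.45. They made up 23.1% of the genes that rose and 3.08% of the genes tested. Of the 194 that lie on chromosome 19, 39 rose, with a median of 0.60, and of the 226 others 30 rose, with a median of 0.29. Of those among the widest gaps, ZNF17 had 1.38 and 2.47 CPM in NC and 6.63 to 7.38 CPM in KD, ZNF227 had 1.88 and 2.61 CPM against 6.23 to 10.5 CPM, ZNF429 had 0.987 and 0.752 CPM against 2.35 to 4.70 CPM, and ZNF506 had 2.14 and 1.96 CPM against 4.76 to 8.58 CPM and rose by 1.53.

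Base composition moved with this result. The canonical transcripts of the DEGs that rose with separated libraries had a median GC content of 40.4% and a median length of 4590 nt. Those that fell had 54.3% and 2677 nt, and all genes tested had 49.1% and 3262 nt. The genes that rose were also weakly expressed, with a median NC level of 2.98 CPM. That of the genes that fell was 24.3 CPM, and that of all genes tested was 24 CPM. Whether the level bears on the calls was not tested. Genes were split into 5 bins of equal size by GC content. In the bin with the lowest GC content (30.73% to 40.86%) 5.93% of genes rose and 0.111% fell, and in the bin with the highest (58.97% to 75.97%) 0.665% rose and 1.26% fell. The median level of the former bin minus that of the latter, relative to the NC mean, was 0.62 in NC repeat 1 and -0.62 in NC repeat 2. It was 0.17 and 0.53 with siFAT1-1 and 1.15 and 1.47 with siFAT1-2. NC repeat 1 thus lay within the range of the KD libraries and NC repeat 2 below all of them.

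When a per-library curve of level on GC content was taken out, an alternative added after seeing the data, 219 genes rose and 125 fell, and 152 of the 275 separated genes that rose and 60 of the 98 that fell met both criteria again. In that fit 8 of the 24 zinc fingers near ZNF616 rose (median 0.90), 40 of all 420 ZNF symbols rose and 1 fell (median 0.26), and 13 of the 42 NF-kappa B target genes fell (median -0.73). Of the 70 named DEGs 3 lost their P under 0.05 in it, ZNF506 (0.70), ZNF611 (0.71) and ITGA4 (1.37), and ZNF429 went to 1.09. Others kept their P but were short of the size threshold, so that they were no longer DEGs. They were ACTB (-0.89), AEN (-0.94), CDK4 (-0.86), DSG2 (0.90), LGR4 (0.85), NFKB1 (-0.92), PERP (0.92), TNFAIP3 (-0.97) and ZNF525 (0.89). What part of the differences GC content accounts for was not tested further.

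**Figure D4:**
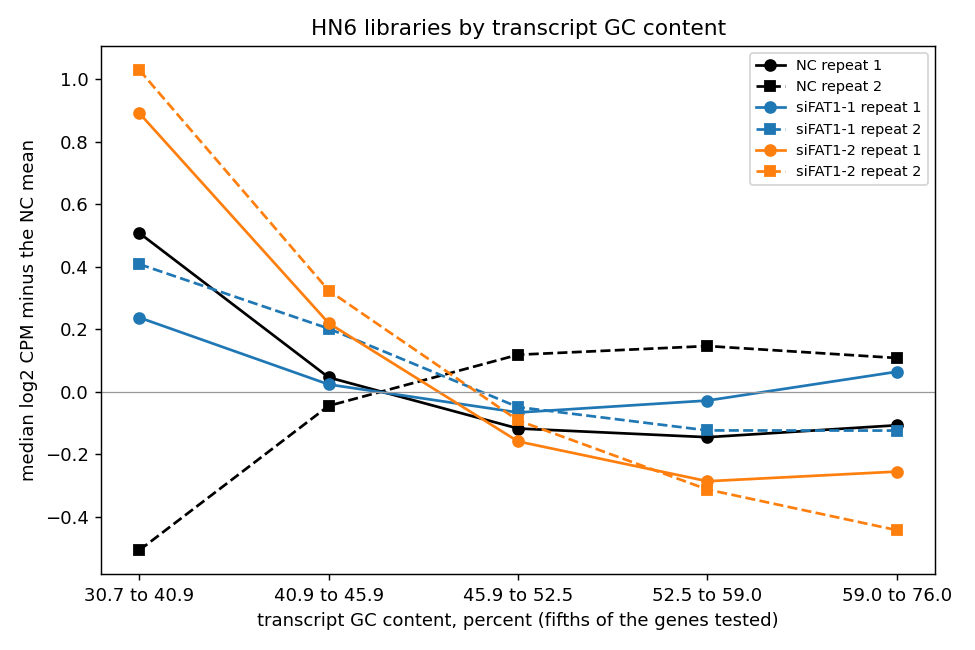
Median log2 CPM minus the NC mean (vertical axis) over 5 equal bins of the tested genes ordered by transcript GC content (horizontal axis, percent), 1 line per HN6 library, black for NC, blue for siFAT1-1, orange for siFAT1-2, solid for repeat 1 and dashed for repeat 2. NC repeat 1 and NC repeat 2 part at the low-GC end, at 0.51 and -0.51, and the siFAT1-2 libraries reach 0.89 and 1.03 there.

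Desmosomes are the button-like junctions that anchor keratin filaments between squamous cells, built from desmogleins and desmocollins outside and plakoglobin, plakophilins and desmoplakin inside. Of 16 tested genes of desmosomes and hemidesmosomes, 4 rose and 0 fell, 5 were separated higher (31.2%, against 7.4%) and 0 lower, with a median of 0.42. DSG3, the desmoglein of basal squamous layers, had 26.0 and 12.4 CPM in NC, 37.6 and 53.3 CPM with siFAT1-1 and 71.7 and 98.1 CPM with siFAT1-2 (1.77, SE 0.49). DSP, which encodes desmoplakin, had 168 and 96.7 CPM in NC and 281, 313, 272 and 354 CPM in KD (1.21, SE 0.29). PERP, a desmosomal membrane protein and p53 target, had 214 and 277 CPM in NC and 614, 623, 755 and 515 CPM in KD (1.35, SE 0.25). DSG2 rose by 1.19 (SE 0.39), and DSC3 was separated higher without passing the test (0.75). The plaque genes JUP, PKP1 and PKP3 had log2 fold changes of 0.33, -0.79 and -0.27, none past the test, and of the hemidesmosome genes 0 were DEGs. The count was 8 without NC repeat 1 and 2 without NC repeat 2, and 2 after the GC curve was taken out. Without the latter NC library DSG2 (0.76) and DSG3 (1.33) lost their P under 0.05, and without the former DSG2 had 1.80.

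Among actin-related genes TPM4 and the abundant ACTB moved apart. ACTB, which encodes beta-actin and is often used as a reference gene, had 8562 and 6433 CPM in NC and 3720, 3099, 3446 and 4030 CPM in KD, and fell by 1.07 (SE 0.23). TPM4 rose, as given above, and ENAH, an actin filament elongation factor, rose by 1.02 with overlapping libraries. Of 45 tested genes of the list, these 2 rose and ACTB fell. Separated lower were 6 (13.3%, against 8.77% of all genes) and higher 1 (2.22%, against 7.4%). VIM, the intermediate filament gene of mesenchymal cells, fell by 1.20 (SE 0.40) from 1491 and 589.9 CPM to between 271 and 556 CPM. Its list of 27 tested genes of the epithelial-mesenchymal state did not move as a whole. In it 2 genes fell and 0 rose, 2 were separated higher and 2 lower (7.41% each), and the median was 0.15. Of its 10 mesenchymal members, 4 fold changes were above 0 and 6 below. SERPINB2, a plasminogen activator inhibitor of keratinocytes, had 450.1 and 127 CPM in NC and 52.97, 58.9, 31.0 and 95.2 CPM in KD (-2.28, SE 0.53). Both rested on NC repeat 1, without which VIM had -0.39 and SERPINB2 -1.09, neither at a P under 0.05, and SERPINB2 also lost it with all 12 libraries in 1 fit.

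Histone genes of the clusters rose in part. Their mRNAs mostly lack the poly(A) tail on which the libraries were selected, so that poly(T) capture reads a subset of their transcripts. Of 34 tested genes in the list of histone genes, 4 rose, 0 fell, 10 were separated higher (29.4%) and 0 lower, and all 10 belonged to the clustered genes. HIST2H4B and HIST2H3D, which the list did not hold, also rose with separated libraries, by 5.44 and 1.35. HIST1H2BD had 18.8 and 22.4 CPM in NC and 55.3, 60.9, 94.7 and 40.8 CPM in KD (1.61, SE 0.38). HIST1H4E, HIST1H4H and HIST2H2BF rose by 1.51, 1.05 and 1.74 from between 0.954 and 7.12 CPM. Without NC repeat 1 and without NC repeat 2, 4 and 7 histone genes rose. HIST1H4H (0.86) lost its P under 0.05 in the former case and HIST2H2BF (1.40) in the latter. Several members, among them HIST2H2AA3 and HIST2H2AA4, have near-identical copies and are uncertain.

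Cell cycle lists, which the title of the series names, gave few calls in HN6. Of 42 tested S phase genes 0 were DEGs with edgeR, limma-voom or DESeq2, 1 had an unadjusted P under 0.05 with each tool, 4 were separated lower (9.52%, against 8.77% of all genes) and 0 higher. The median log2 fold change was -0.03. Of 54 G2/M genes 0 were DEGs with these tools, 1 had an unadjusted P under 0.05, 2 were separated lower and 0 higher, and the median was 0.10. Without NC repeat 1, 5 S phase and 8 G2/M genes rose, and without NC repeat 2 or siFAT1-2 repeat 1, 0 of either list were DEGs. Without siFAT1-2 repeat 2, 1 G2/M gene fell. With 1 library left out the median of the S phase genes ran from -0.30 to 0.18 and that of the G2/M genes from -0.28 to 0.35, and after the GC curve was taken out they were -0.29 and -0.17. The libraries of siFAT1-2 parted. Relative to NC, S phase genes had a mean level of -0.79 in siFAT1-2 repeat 1 and 0.68 in repeat 2, against -0.19 and 0.10 with siFAT1-1 and 0.01 and -0.01 in NC. For the G2/M genes it was -0.89 and 1.04, against -0.15 and 0.13 with siFAT1-1. In G1/S control 2 of 34 genes fell, CCNE1 and CDK4, and 4 were separated lower (11.8%) and 3 higher (8.82%, against 7.4% of all genes). CDK4, the partner of cyclin D, went from 173 and 289 CPM to 105, 98.1, 75.5 and 166 CPM (-1.06, SE 0.35). Without NC repeat 2 CDK4 had -0.64, with a P not under 0.05.

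A panel of genes was chosen in the study on these samples for qRT-PCR. Of its 13 genes, 3 rose in HN6 (PERP, TPM4 and EMC6) and 2 fell (CCNE1 and CD83), and a further 1 was separated higher and 3 lower without being DEGs. EMC6, a subunit of the membrane protein insertion complex of the endoplasmic reticulum, had 28.9 and 43.9 CPM in NC and 69.3 to 79.0 CPM in KD (1.04, SE 0.27). GANAB, the alpha subunit of glucosidase II, was separated higher at 375 and 776 CPM against 903 to 1245 CPM, with a log2 fold change of 0.95, at an unadjusted P under 0.05. MCM5, SPC24 and SUV39H1 were separated lower, at -0.83, -0.81 and -0.85, none past the test. MCM2, MYBL2, KIF2C and UHRF1 overlapped, and in each the siFAT1-2 repeat 1 library was the lowest of the 6, at 47.4, 24.0, 28.1 and 13.6 CPM. Since the panel came from these samples, its counts are not independent evidence of its direction.

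Other lists held single DEGs with separated libraries. In the EGF receptor family NRG4, a ligand of ERBB4, had 0 and 1 counts in NC and 92 counts over the KD libraries, a ratio of 41.8 (95% exact interval 7.33 to 1670, counting error only), which is a description, since the gene passed the count filter through its KD libraries and was named for being separated, and LRIG1 fell as given above. COL5A2, a fibrillar collagen chain, rose by 2.32 (SE 0.71) from 0.428 and 0.806 CPM to between 1.11 and 5.23 CPM. CYR61, a target of the Hippo effector YAP, rose by 1.00 (SE 0.31) from 528 and 578 CPM to between 702 and 1442 CPM, and was the only DEG among 40 tested genes of the Hippo pathway and YAP targets. HMOX1, the haem-degrading enzyme that NRF2 induces, and JAG1, a Notch ligand, fell by 1.37 and 1.07, JAG1 not with the repeat as a block (unadjusted P of 0.0629). AEN, a p53-induced nuclease, fell by 1.19. NOLC1, a nucleolar protein, LGR4, a receptor for R-spondins, and ITGA4, the integrin alpha 4 chain, rose by 1.17, 1.08 and 2.03. Among these, COL5A2 (1.94), CYR61 (0.93), NOLC1 (0.84), ITGA4 (1.66), HMOX1 (-0.66) and JAG1 (-0.78) lost their P under 0.05 without NC repeat 1, and AEN (-0.77), LGR4 (0.73) and JAG1 (-1.31) without NC repeat 2. HMOX1 lost it also without siFAT1-2 repeat 1 (-1.39), JAG1 without siFAT1-2 repeat 2 (-0.97) and ITGA4 after the GC curve was taken out (1.37).

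Broad metabolic and ribosomal lists held no DEG, and their medians lay below 0. Of 58 genes for cytosolic ribosomal proteins, 9 were separated lower (15.5%) and 0 higher, 55 had a log2 fold change below 0, and the median was -0.31. Of 35 glycolysis and hypoxia genes, 8 were separated lower (22.9%) and 0 higher, with a median of -0.29, and of 41 nuclear genes of the respiratory chain 8 were separated lower (19.5%) and 1 higher, with a median of -0.25. In these 3 lists edgeR, limma-voom and DESeq2 called 0 DEGs, and with edgeR 0, 3 and 0 members had an unadjusted P under 0.05. The mean level of the ribosomal list relative to NC was -0.25 in NC repeat 1, within the KD range of -0.33 to -0.20, and 0.25 in NC repeat 2. Leaving out NC repeat 2 took the ribosomal median to -0.015 and the respiratory one to -0.11, leaving out NC repeat 1 took them to -0.56 and -0.37, and scaling by library size alone to -0.20 and -0.15. The glycolysis median ran from -0.37 to -0.18 with a library left out, and 2 of its genes rose without NC repeat 1 and 1 without NC repeat 2.

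Of 37 interferon-stimulated genes, 33 had a fold change above 0 (median 0.56), yet 0 were separated higher. IFIT2 and PARP14 rose by 1.67 and 1.38 with overlapping libraries. The mean level of the list was 1.63 and 1.06 with siFAT1-1, -1.75 and 0.61 with siFAT1-2, and -0.51 and 0.51 in NC, so that siFAT1-2 repeat 1 lay below both NC libraries and the other KD libraries above both. Without siFAT1-2 repeat 1, 10 members rose (median 0.92), but without siFAT1-1 repeat 1, 2 rose and 1 fell (median -0.014). The median was 0.086 with 4 rising without NC repeat 1, and 1.30 with 0 DEGs without NC repeat 2. Such genes can respond to transfected double-stranded RNA in general, and all 6 libraries came from transfected cells. Whether such a response bears on these values was not tested.

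Markers of other cell types were sparse. Of the 10 fibroblast, 10 leukocyte and 8 endothelial markers listed, 4, 3 and 5 passed the filter, and 0 were DEGs or separated. Epithelial markers were present, KRT5 at 283 to 1906 CPM, TP63 at 26.6 to 61.0 CPM and CDH1 at 329.8 to 979 CPM, while KRT14 was low at 0.216 to 2.31 CPM. Of 17 epithelial identity genes, 2 rose (DSP and PERP) and 0 fell.

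The siRNAs were also compared with each other. In the comparison of siFAT1-2 with siFAT1-1, 976 genes were DEGs (7.16% of genes tested), 437 higher and 539 lower with siFAT1-2. That count depended on single libraries and ran from 267 without siFAT1-1 repeat 1, where KD against NC gave 532, to 1877 without siFAT1-2 repeat 2, where it gave 314. With edgeR 0 had an adjusted p under 0.05 (lowest 0.389) against 1608 at an unadjusted P under 0.05, and the adjusted count was 0 with limma-voom and 262 with DESeq2. Those named here, of the genes with the smallest P, each had an adjusted p = 0.389 and were, apart from ODC1, near the NC level with one siRNA and far below it with the other. LIMK1, a kinase that acts on cofilin, had 171 and 215 CPM in NC, 42.8 and 42.8 CPM with siFAT1-1 and 170.1 and 167 CPM with siFAT1-2 (difference 1.97). AP1M1, PSMD13 and RNF187 showed the reverse. AP1M1, a subunit of the clathrin adaptor AP-1, had 105 and 78.1 CPM with siFAT1-1 and 17.4 and 20.9 CPM with siFAT1-2 (-2.25). PSMD13, a proteasome subunit, had a difference of -2.08 and RNF187, a RING-type ubiquitin ligase, one of -2.25, and ODC1, the rate-limiting enzyme of polyamine synthesis, was lower than NC with siFAT1-1 and higher with siFAT1-2 (1.87). LIMK1 counted as separated lower although its siFAT1-2 libraries lay at the NC level, at a gap that rounds to 0.00 on the log2 scale.

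HN30 provided libraries that had no part in choosing the HN6 genes. FAT1 itself went from 14.1 and 15.2 CPM in NC of HN30 to between 4.98 and 11.1 CPM in KD, with separated libraries. Its log2 fold change there was -0.94, at an unadjusted P under 0.05 but short of the size threshold. Its interaction of line and knockdown, -1.21, met the unadjusted DEG thresholds in edgeR's fit. What this smaller fall means for the other genes in HN30 was not tested. Of the 275 separated DEGs that rose in HN6, 244 were tested in HN30. In HN30 57 of them rose (23.4%, against 1.96% of genes tested in both lines), 1 fell, and 104 were separated higher there (42.6%, against 9.89%). Their median log2 fold change in HN30 was 0.80, against 0.02 over all genes tested in both lines. Of the 98 that fell, 86 were tested in HN30, where 19 fell (22.1%, against 1.91%), 0 rose, and 39 were separated lower (45.3%, against 11.6%), with a median of -0.72. Both lines received the same siRNAs, so effects of FAT1 loss and of the siRNA sequences on other targets cannot be told apart by this comparison, and GC content was not matched in it.

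Genes that passed in both lines came from several of the groups above. Among those that fell, the log2 fold change in HN30 was -2.20 for CCNE1, -1.95 for CD83, -1.68 for IL1B, -1.03 for RELB, -1.11 for RUNX3, -1.06 for SYDE1, -1.10 for GALNT10, -1.68 for PPIL1 and -5.66 for SERPINB2. TPM4 rose by 2.67 in HN30, CDK14 by 2.35, HABP4 by 2.48, COL5A2 by 3.0, HIST1H2BD by 3.08, PERP by 1.41 and NTN4 by 1.18. Of the zinc fingers near ZNF616, 5 of 22 rose in HN30 and 9 were separated higher, with a median of 0.85. Over all genes tested in both lines these shares were 1.96% and 9.89%. ZNF616 itself rose by 2.36.

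Other HN6 genes did not pass in HN30. Of the 42 NF-kappa B target genes, 4 fell and 2 rose in HN30, with a median of -0.14, and 6 had an interaction of line and knockdown at an unadjusted P under 0.05, all with the lower fold change in HN6. Over all genes tested in both lines 1.91% fell and 1.96% rose in HN30. Of the 13618 HN6 genes tested for the interaction, 135 had such a P with the lower fold change in HN6 and 134 with the higher. TRAF1 had a log2 fold change of 0.27 in HN30 and an interaction of -2.55. CXCL1 had 0.72 in HN30 and an interaction of -2.10, and ACTB -0.06 and -1.04. None of these HN30 values passed the test, and all 3 interactions met the DEG thresholds at an adjusted p = 1.00. Conversely, 21 of the 42 S phase genes fell in HN30 (against 1.91% of genes tested in both lines), with a median of -1.19. Of them 3 had an interaction at an unadjusted P under 0.05, with the higher fold change in HN6, and the median interaction of the list was 1.02. Of 53 G2/M genes tested in HN30 20 fell, with a median of -1.0, and 2 of 54 had such an interaction.

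Across the 14360 genes tested for it, 269 had an interaction that met the DEG thresholds (1.87%) and 317 had an unadjusted P under 0.05, but 0 had an adjusted p under 0.05 with edgeR, limma-voom or DESeq2, and the lowest with edgeR was 1.00. The genes with the smallest P included PRRG4, a vitamin K-dependent membrane protein, which was separated higher in HN6 (0.79) and lower in HN30 (-0.46), with an interaction of 1.22, and whose HN6 value was 0.23 after the GC curve was taken out, not past the test. VGF, a secretory granule protein, and PAQR5, a membrane progestin receptor, rose by 2.91 and 1.64 in HN30 and had log2 fold changes of 0.10 and 0.25 in HN6, neither past the test. NRG4 had a log2 fold change of 0.89 in HN30, not past the test, and ACKR4 was below the count filter in HN6.

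**Figure D5:**
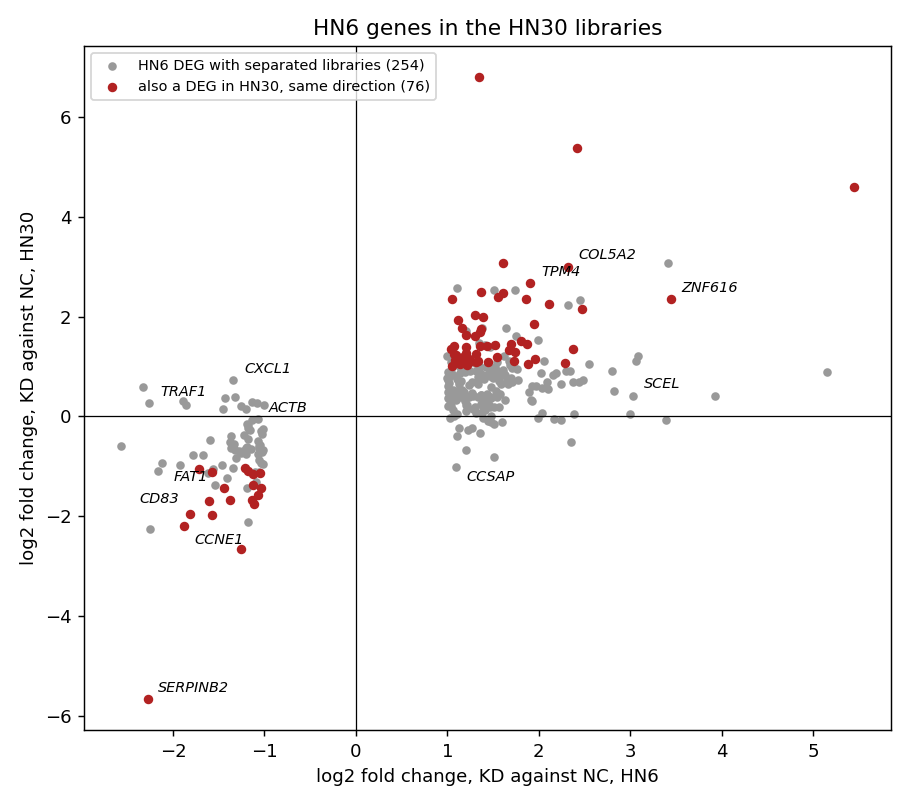
Fitted log2 fold changes of KD against NC in HN6 (horizontal axis) and HN30 (vertical axis) for the 330 HN6 DEGs with separated libraries that were tested in both lines, 1 point per gene, with red for the 76 that were DEGs in HN30 in the same direction. TPM4, COL5A2 and ZNF616 lie high in both lines, CD83 and CCNE1 low in both, while TRAF1, CXCL1 and ACTB lie near or above 0 in HN30.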

How the data were processed

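RNA sequencing measured mRNA of HN6 and HN30 cells, and the comparisons use the HN6 libraries, with HN30 as separate libraries. Per the study's methods and the submitters' processing notes, the authors purified mRNA with polyT beads, aligned reads to hg38 with HISAT2 and counted reads per gene with featureCounts, and deposited the unnormalised counts of 19225 genes. Versions, annotation and the use of strand in counting are not given in the sources used here. No column was left unused (0).

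Genes passed edgeR's expression filter at a minimum count of 10, with TMM scaling. KD and NC were compared with quasi-likelihood tests in edgeR 4.0.16 (R 4.3.3), as were the siRNAs with each other and the cell lines by an interaction, with Benjamini-Hochberg adjustment over all genes tested. The pipeline was tested on simulated data. limma 3.58.1 (voom), DESeq2 1.42.0, other scalings and filters, all 12 libraries in 1 fit, the repeat as a block, and each library left out were alternatives, and a correction for GC content was chosen after seeing the data. The labels give repeats as separate times, shared across conditions. The deviations of same-numbered libraries correlated at 0.0915, 0.225 and 0.251 in the 3 pairs of conditions, so the pairing rests on the labels. Figures were drawn with Python 3.11.15 and matplotlib 3.10.9.

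Positions, lengths and GC content came from the annotation of GRCh38, matched by symbol for 18278 genes directly and 756 through older symbols, with 191 unmatched, and promoters from RefSeq (GRCh38.p14). Named were the target, the 14 DEGs with the widest gap in each direction among separated genes (mean CPM of at least 1), list members that were DEGs with separated libraries or of greatest absolute fold change in a list described, the study's qRT-PCR panel, the 3 smallest P in each direction for the siRNAs and the interaction, and the genes at the edge of the order rule. Some genes that the rule names are not reported here. Other genes were named after their values were seen, to complete a list's count or a gene family. The members and gene lists were chosen with earlier results of these data known. Fold changes of genes near 0 counts depend on the prior count of 0.125, and depth bears on counting error only.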

Additional observations from a re-analysis of the deposited data

Results flagged for a closer look

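The siFAT1-2 repeat 1 library lay apart from the other 3 KD libraries for 7 of 92 named genes by Dixon's test at its 95% critical value, which chance alone passes in about 5% of groups. It was the lowest for MCM2 (47.4 CPM), MCM5 (59.9 CPM), SPC24 (2.51 CPM), UHRF1 (13.6 CPM), CSF3 (0.486 CPM) and WDR62 (17.6 CPM), and the highest for HIST2H2BF (9.75 CPM). MCM2 and MCM5 are subunits of the replicative helicase, UHRF1 maintains DNA methylation at replication, and SPC24 is a kinetochore protein. The same library had the lowest mean level of the S phase and G2/M genes. The part of this library in those values was not tested beyond leaving it out.

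By an unadjusted P under 0.05 for the interaction, another 2 DEGs of HN6 had all KD libraries on opposite sides of NC in the cell lines. LOC105372280 had a log2 fold change of -1.89 in HN6 and 0.31 in HN30, with an interaction of -2.23 (edgeR, adjusted p = 1.00). Its levels were below 1 CPM in all libraries. CCSAP, a centriole and spindle protein, had 1.09 in HN6 and -1.01 in HN30, with an interaction of 2.08 (edgeR, adjusted p = 1.00).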

How the results depend on the processing

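Across the alternatives without a library left out, the DEGs of KD against NC numbered 344 to 556 (420 as reported), and the log2 fold change of FAT1 kept its direction and its P under 0.05 in every fit. Genes with an adjusted p under 0.05 numbered 68 with DESeq2 for KD against NC (0 as reported), and 262 with DESeq2 and 26 with all 12 libraries in 1 fit for the siRNAs (0 as reported), and the cause was not tested. Leaving out 1 HN6 library at a time gave 314 to 1599 DEGs, 2467 to 7646 separated genes, 178 to 1469 interaction genes, 267 to 1877 siRNA genes and 67 to 82 genes shared with HN30, and FAT1 fell by between 1.91 and 2.41. With 1 NC library left, its spread was assumed to be that of the others, and fewer libraries make separation easier by construction. With the replicate block the DEGs numbered 417 (310 higher, 107 lower), FAT1 fell by 2.17, and the interaction and siRNA genes numbered 226 and 1248. With the block CXCL2, IL1RL1, JAG1, TNFRSF9 and ZNF611 lost their P under 0.05, and CYR61 (0.96) was short of the size threshold. With all 12 libraries in 1 fit 9 lost it (CYR61, HIST1H4E, HIST1H4H, HIST2H2BF, IL1RL1, SERPINB2, SPRY4, TNFRSF9 and ZNF525), and ZNF611 (0.98) was short of that size. With the GC correction and the block 7 lost it (JAG1, NEGR1, SPRY4, VIM, ZNF506, ZNF525 and ZNF611). In that fit ACTB (-0.86), AEN (-0.98), CDK4 (-0.87), DSG2 (0.92), LGR4 (0.87), NFKB1 (-0.93), PERP (0.93) and TNFAIP3 (-0.94) kept their P but were short of the size threshold. With the GC correction, chosen after seeing the data, the DEGs numbered 344, and 348 with the block as well. The fold change of ODC1 reversed to -0.033 with limma-voom and ran from -0.20 to 0.51 with a library left out, reversed without siFAT1-2 replicate 1, and that of VGF ran from -0.15 to 0.40, reversed without NC replicate 1 and without siFAT1-2 replicate 1, none of the reversed values past the test. Of the values recomputed for single genes, 1000 kept their direction and side of the threshold on P, 82 lost it, 6 gained it and 4 reversed. Of the list medians 130 moved by less than the spread of the KD libraries and 20 by more.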
